A study of Mus musculus with 2 samples.

Results

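Aldh7a1, Prelid2, Cdk5rap1, Gm8797, Gm42031 and Gm43305, 6 of the 32285 genes in the feature list, were followed across the cell classes of the mouse spleen. They were picked by name, because earlier readings of the same counts had them differing in the same direction in T and B cells, or in every class, between a library from an RPA1 conditional knockout spleen (CKO) and a library from a WT spleen. The ratios between the libraries therefore chose these genes and are given as a description, with no test. Both libraries hold immune cells from the spleen of C57BL/6 mice, captured in droplets and sequenced as 3′ tags with unique molecular identifiers (UMIs), each of which marks 1 captured transcript. The labels give neither the deleted part of RPA1, nor the Cre line, nor the age, sex or number of the animals. With 1 library per genotype, genotype, animal and library cannot be told apart.

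RPA1 belongs to the trimer of replication protein A and is its large subunit; the trimer coats single-stranded DNA during replication and repair. The 6 genes come from unrelated pathways. Aldh7a1 encodes an aldehyde dehydrogenase of lysine breakdown, and Prelid2 belongs to the PRELI-domain family, whose better known members carry phospholipids between the mitochondrial membranes. Cdk5rap1 encodes a methylthiotransferase that modifies mitochondrial tRNAs and was first named as a binding partner of a CDK5 activator. Gm8797 is a copy of the ubiquitin gene Ubb, and Gm42031 and Gm43305 are long RNAs with no assigned function.

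Classes were gated on UMIs of fixed marker genes. A cell entered a class with at least 2 UMIs of that class's markers and at most 1 UMI of each of the other 4 main marker lists. The CKO library gave 661 T, 9497 B, 818 NK, 274 mononuclear phagocyte and 53 neutrophil cells, and the WT library gave 3222, 7281, 339, 247 and 66 cells of the same classes. Levels are UMIs summed over a class per 10⁶ summed UMIs (CPM), with exact Poisson intervals at 95%, and each ratio of the CKO to the WT level has a 95% interval from the exact binomial split of the summed UMIs. All intervals cover counting error only, so they leave out differences between animals and between libraries. A gene was counted as higher or lower past a ratio of 1.5-fold with at least 20 UMIs summed over both libraries.

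The CKO library held 76910129 UMIs over 12958 barcodes and the WT library 84240951 UMIs over 13291 barcodes, with medians of 4616 and 5355 UMIs per barcode. The libraries shared 36 barcodes. The T cell markers of the gate summed to 2320 CPM in CKO and 2366 CPM in WT T cells, and the NK markers to 4449 and 4535 CPM in CKO and WT NK cells. The make-up of the T cells differed, with the CD8 markers at 301 CPM in CKO against 700.3 CPM in WT T cells and Trdc at 217 against 15.4 CPM. In Trdc-positive T cells, Trdc stood at 1019 CPM in the CKO library against 449.5 CPM in the WT library. Among B cells the 4 plasma cell markers, all detected in both libraries, summed to 417 CPM in the CKO library against 773 CPM in the WT library. Most of each sum was Jchain, at 339 CPM in the CKO library against 687 CPM in the WT library. The mix of mononuclear phagocytes differed too, with conventional dendritic markers at 385 CPM in CKO against 501 CPM in WT cells. Plasmacytoid dendritic markers stood there at 380.3 against 624.7 CPM, and monocyte or macrophage markers at 1773 against 1629 CPM. Rpa1 itself stood at 36.0 CPM in CKO and 43.4 CPM in WT T cells (ratio 0.830, 0.694 to 0.988) and at 32.9 and 34.7 CPM in CKO and WT B cells. A 3′ tag outside the deleted part checks nothing, and the labels do not say where that part lies. Haemoglobin UMIs stood apart, with Hbb-bs at 615 CPM in CKO T cells against 0.261 CPM in WT T cells, and 107 against 0.836 CPM in B cells. In mononuclear phagocytes Hbb-bs stood at 2211 against 8.56 CPM, but in NK cells only at 3.42 CPM (13 UMIs) against 0 UMIs. The size of this difference thus varied between classes. The part of such differences between the libraries in the values given here was not tested.

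In T cells, 2 of the 6 genes (Aldh7a1 and Gm8797) were higher in the CKO library, where 7.29% of 11488 genes tested were, and the other 4 were lower, where 6.47% were. In B cells, Aldh7a1 and Gm8797 were again higher, against 4.36% of 13215 genes, and the other 4 again lower, against 3.5%. Passing in both classes in 1 direction was rarer, with 74 genes higher (0.67%) and 60 genes lower (0.543%) of 11040 genes tested in both. The 6 genes were picked for this, so their places in those lists describe the choice. Ranked by the weaker of the T and B shifts, the ratio nearer to 1 on the log scale, Aldh7a1 stood at place 4 among the 74 higher genes. It came behind 3 haemoglobin genes, and Gm8797 stood at place 57. Among the 60 lower genes Prelid2 stood at place 5, Gm42031 at 8, Cdk5rap1 at 23 and Gm43305 at 48. Gm8797 and Gm43305 lay just inside the threshold in B cells, with ratios of 1.56 and 0.629. Just outside it were Gm8797 in CD4 T cells, at 1.47, and Gm43305 in NK cells, at 0.671.

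**Figure D1:**
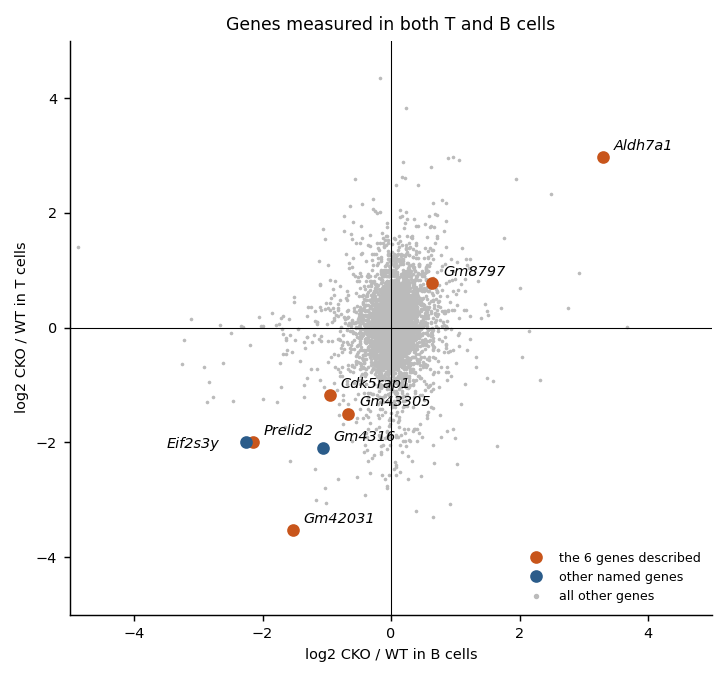
Each point is 1 of 11017 genes with a finite ratio in both classes, with its log2 CKO over WT ratio in B cells on the horizontal axis and in T cells on the vertical axis; 4 points lie beyond the axes. The 6 genes described (orange) lie in the upper right or lower left corner, Aldh7a1 farthest out at 3.30 and 2.97, and Eif2s3y and Gm4316 (blue) are named for comparison.

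The direction was shared by all classes for some of the genes only. Gm42031 alone passed 1.5-fold in T, B, NK and mononuclear phagocyte classes together, and it was 1 of 5 genes that were lower in all 4 (0.0585% of 8554 genes tested in each). That call turned on NK cells, where its log2 ratio of -0.71 became -0.57 with a stricter gate and -0.58 with the planned gate, both just inside 1.5-fold; under both of these gates Cdk5rap1 was lower in all 4 classes. None of the 6 was among the 6 genes higher in all 4 (0.0701%). Gm8797 was inside 1.5-fold in mononuclear phagocytes alone of these 4, at a log2 ratio of 0.56, and it passed in all 4 classes with a stricter cell filter (0.62 in mononuclear phagocytes), with Scrublet (0.61) and after thinning to 1000 UMIs per cell (0.85). In NK cells Gm8797 was higher, where 6.69% of 9498 genes were, and Cdk5rap1 and Gm42031 were lower, where 4.95% were. In mononuclear phagocytes none of the 6 was higher, where 5.54% of 9806 genes were, and Gm42031 and Gm43305 were lower, where 7.0% were. Aldh7a1 and Prelid2 passed the threshold in neither of these classes, so a shift shared across lineages was seen for them in T and B lymphocytes only, as far as the few UMIs elsewhere allow.

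**Figure D2:**
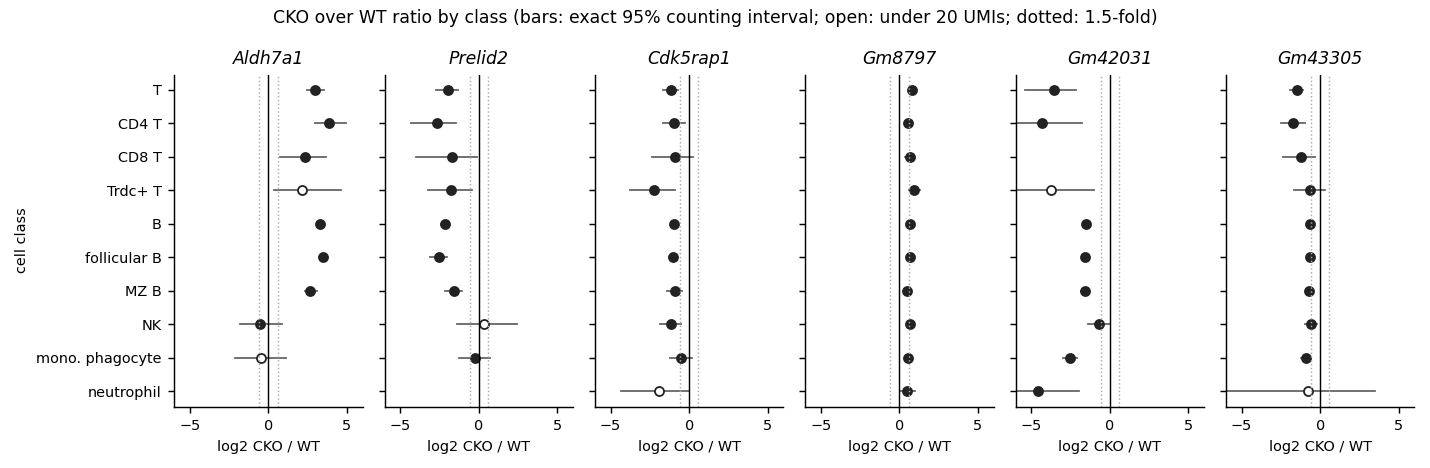
Log2 CKO over WT ratio of each gene (columns) in each cell class (rows), with exact 95% counting intervals; open points rest on under 20 UMIs and dotted lines mark 1.5-fold. Aldh7a1 lies between 2.17 and 3.88 in T and B classes and at -0.51 in NK cells, while Gm8797 lies between 0.50 and 0.93 in every class drawn.

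Aldh7a1 (ENSMUSG00000053644, mm10 chr18:56509687-56572951, minus strand, protein coding) oxidises the aldehyde formed from lysine and other small aldehydes, and its human form is the gene mutated in pyridoxine-dependent epilepsy. It had 6059 UMIs in CKO B cells (117 CPM, 114 to 120) against 484 UMIs in WT B cells (11.9 CPM, 10.9 to 13.0), a ratio of 9.81 (8.94 to 10.8). In T cells it had 73 UMIs in the CKO library (17.8 CPM, 13.9 to 22.4) against 52 UMIs in the WT library (2.27 CPM, 1.69 to 2.97), a ratio of 7.85 (5.43 to 11.4). B cells therefore carried more of this transcript than T cells in each library, and the intervals of the T and B cell ratios overlapped.

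Within B cells the difference was larger in follicular than in marginal zone cells. Follicular B cells had 132 CPM of Aldh7a1 in the CKO library and 12.0 CPM in the WT library, with the interval of the ratio from 9.45 to 12.9, where 3.62% of genes were higher. Marginal zone B cells had 67.4 CPM in the CKO library and 10.5 CPM in the WT library, for a ratio of 6.39 (4.96 to 8.36), where 4.4% were. The WT levels of these B cell subsets lay within each other's intervals, and the CKO levels did not.

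More B cells held the Aldh7a1 transcript, and more of it each. In the CKO library 3823 of 9497 B cells (40.3%, exact interval 39.3 to 41.3) had at least 1 UMI, against 406 of 7281 (5.58%, 5.06 to 6.13) in the WT library. If every B cell of a library had held the transcript at 1 rate per UMI, 44.4% of CKO and 6.37% of WT B cells would have shown a UMI. Both found shares lay below these values beyond their intervals, so the counts were less evenly spread than 1 rate would give. There were 539 CKO and 9 WT B cells with 3 or more UMIs. After each cell was thinned to 1000 UMIs, leaving out 22 CKO and 35 WT cells that were shallower, the shares were 11.7% and 1.41%.

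In CD4 T cells Aldh7a1 had 41 UMIs in the CKO library against 13 in the WT library, at 23.1 and 1.56 CPM, a ratio of 14.8 (7.76 to 30.0), where 5.8% of 10099 genes were higher. CD8 T cells of the CKO library were few, 68 against 1107 in the WT library, and had 6 against 22 UMIs, a ratio of 5.07 (1.68 to 12.9), where 12.9% were higher. Trdc-positive T cells had 15 against 3 UMIs, under the minimum.

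NK cells had 15 UMIs of Aldh7a1 in the CKO library (3.95 CPM) against 9 in the WT library (5.64 CPM), which gave a ratio of 0.700 and an interval from 0.287 to 1.82. Mononuclear phagocytes had 7 UMIs in the CKO library (2.79 CPM) and 9 in the WT library (3.85 CPM). Neutrophils had 1 UMI in the CKO library and 0 in the WT library, where the Poisson interval reached 4.54 CPM. The CKO levels in NK cells and mononuclear phagocytes thus lay below those of CKO T and B cells, and the interval of the NK ratio did not reach that of either lymphocyte class.

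Droplets also take up free RNA from lysed cells, so the T cell level of Aldh7a1 was set beside B cell transcripts. The 4 B cell markers of the gate all had UMIs in T cells, summing to 37.5 CPM in CKO T cells against 33.5 CPM in WT T cells, and to 7176 against 6891 CPM in B cells. Fcer2a, a follicular B cell receptor not used to exclude cells from the T gate, stood in T cells at 0.711% of its B cell level in the CKO library and at 0.881% in the WT library. Aldh7a1 stood in T cells at 15.2% (11.9% to 19.2%) of its B cell level in the CKO library and at 19.0% (14.0% to 25.4%) in the WT library. These intervals lay above those of Fcer2a, 0.379% to 1.22% and 0.710% to 1.08%. In CKO NK cells and mononuclear phagocytes Aldh7a1 stood at 3.38% and 2.39% of the B cell level, against 0.829% and 1.61% for Fcer2a. The intervals of Aldh7a1 and Fcer2a overlapped in mononuclear phagocytes, at 0.959% to 4.92% and 0.954% to 2.55%, and not in NK cells. Fcer2a is 1 transcript, and the part of free RNA in these levels was not tested.

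Aldh7a1 overlaps Phax, a gene on the opposite strand whose product exports small nuclear RNAs. Phax had 55.3 CPM in CKO and 57.4 CPM in WT T cells (ratio 0.962) and a ratio of 0.868 in B cells, so it did not share the difference. Whether the counting used the strand of a read is not given in the sources used here, and without strand the reads of such a pair cannot be told apart. Among the 20 nearest genes measured in T or B cells around Aldh7a1, none passed 1.5-fold in the same direction in both classes. Over all chromosomes 1.22% of genes did, a share at which few or none of 20 would pass. The median ratio of these neighbours was 0.975 in T and 1.06 in B cells.

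Most other genes of the same pathway and of the same enzyme family lay within 1.5-fold, as most genes of any kind did. Of all genes tested with UMIs in both libraries, 86.5% lay within it in T cells and 92.2% in B cells. Of 8 other genes of lysine breakdown, 3 were measured in T cells and none of these passed 1.5-fold, while in B cells 1 of 4 was lower (Pipox, an oxidase of pipecolate, 10 against 17 UMIs). Gcdh, the glutaryl-CoA dehydrogenase later in that pathway, had ratios of 1.13 in T and 0.9397 in B cells. Of 20 other aldehyde dehydrogenase genes, 9 were measured in T cells, with Aldh2 higher in the CKO library (13.9 against 8.06 CPM, ratio 1.72) and Aldh4a1 (0.606) and Aldh5a1 (1 against 21 UMIs) lower. In B cells 1 of 11 was lower (Aldh1a3, 15 against 24 UMIs) and none higher. The median log2 ratio of the measured aldehyde dehydrogenases was 0.03 in T and -0.05 in B cells, beside medians of 0.06 and 0.05 over all genes tested.

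Prelid2 (ENSMUSG00000056671, mm10 chr18:41875600-41951242, minus strand, protein coding) was lower in the CKO library in T and B lymphocytes. It had 19 UMIs in CKO T cells (4.63 CPM, 2.79 to 7.23) against 423 in WT T cells (18.4 CPM, 16.7 to 20.3), a ratio of 0.251 (0.150 to 0.397). In B cells it had 142 UMIs in the CKO library (2.74 CPM, 2.31 to 3.23) against 496 in the WT library (12.2 CPM, 11.2 to 13.3), a ratio of 0.224 (0.185 to 0.271). T cells carried more Prelid2 than B cells in both libraries, with intervals that overlapped in the CKO library and did not in the WT library.

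The subsets of T and B cells had the same direction. Prelid2 ratios were 0.155 (0.0496 to 0.370) in CD4 T cells, where 9.31% of genes were lower, and 0.312 (0.0637 to 0.926) in CD8 T cells, where 16.3% were. Trdc-positive T cells had 7 UMIs in the CKO library against 21 in the WT library, for a ratio of 0.299 (0.108 to 0.731), where 7.48% of 7050 genes were lower. Follicular B cells had a ratio of 0.172 (0.117 to 0.245), where 3.02% were lower, and marginal zone B cells one of 0.331 (0.221 to 0.487), where 3.35% were. The CKO level in marginal zone B cells, 4.98 CPM, lay above that in follicular B cells, 2.07 CPM, with intervals that did not overlap; the WT levels, 15.0 and 12.1 CPM, had intervals that did.

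At least 1 UMI of Prelid2 was found in 1.38% of CKO B cells (1.16 to 1.64) against 5.88% of WT B cells (5.35 to 6.44), and in 2.87% of CKO T cells (1.74 to 4.45) against 10.4% of WT T cells (9.36 to 11.5). No CKO T cell held more than 1 UMI, while 18 WT T cells held 3 or more and the highest held 7. The WT share in T cells lay below the 12.2% that 1 common rate over T cells would give, so the transcript was less evenly spread among WT T cells than 1 rate would give.

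Outside T and B cells few UMIs of Prelid2 were counted. NK cells had 12 UMIs in the CKO library (3.16 CPM) and 4 in the WT library (2.51 CPM), a ratio of 1.26 whose interval ran from 0.382 to 5.36. Mononuclear phagocytes had 18 UMIs in the CKO library (7.17 CPM) and 20 in the WT library (8.56 CPM), a ratio of 0.837 (0.417 to 1.67). In neutrophils both libraries had 0 UMIs, with Poisson intervals that reached 5.3 CPM in the CKO and 4.54 CPM in the WT library. The intervals in NK cells and mononuclear phagocytes lay above the B cell ratio and its interval, while that of NK cells overlapped the upper end of the T cell interval.

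Aldh7a1 and Prelid2 lie on the same chromosome, 14.6 Mb apart, and shifted in opposite directions. Chromosome 18 held 2 higher and 3 lower genes of 260 tested in both T and B cells (1.92%), against 1.22% over all chromosomes. Aldh7a1 is among the higher and Prelid2 among the lower, and both were picked for this shift. The choice of genes thus raised the share of chromosome 18, which says nothing further about the chromosome. None of the 20 nearest measured neighbours of Prelid2 passed in the same direction in both classes, and their median ratio was 1.10 in T and 1.06 in B cells. The related genes Prelid1, Prelid3b and their partner Triap1, the 3 measured of 4 listed, passed in neither class, with ratios between 0.938 and 1.14. Most genes of any kind did not pass, with 86.5% in T and 92.2% in B cells within 1.5-fold.

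Cdk5rap1 (ENSMUSG00000027487, mm10 chr2:154335380-154373010, minus strand, protein coding) stood at an even level across T, B and NK cells of the WT library, and at a lower even level across those of the CKO library. In T cells it had 43 UMIs in the CKO library (10.5 CPM, 7.58 to 14.1) against 542 in the WT library (23.6 CPM, 21.7 to 25.7), a ratio of 0.444 (0.317 to 0.606). In B cells it had 631 UMIs in the CKO library (12.2 CPM, 11.2 to 13.2) against 960 in the WT library (23.6 CPM, 22.1 to 25.2), a ratio of 0.515 (0.465 to 0.570). NK cells had 40 UMIs in the CKO library (10.5 CPM) against 38 in the WT library (23.8 CPM), a ratio of 0.442 (0.277 to 0.709). The intervals of the T, B and NK cell levels overlapped one another within each library.

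Mononuclear phagocytes had 34 UMIs of Cdk5rap1 in the CKO library (13.5 CPM) and 45 in the WT library (19.3 CPM), a ratio of 0.703 whose interval of 0.437 to 1.12 includes 1 and also the T and B cell ratios. Neutrophils had 3 against 13 UMIs, under the minimum of 20. The ratio was 0.517 (0.309 to 0.823) in CD4 T cells, 0.484 (0.408 to 0.572) in follicular and 0.525 (0.381 to 0.718) in marginal zone B cells. In CD8 T cells 6 UMIs in the CKO library against 211 in the WT library gave 0.529, with an interval that reached 1.17. The level in marginal zone B cells was below that in follicular B cells in each library, at 8.78 against 12.4 CPM in the CKO and 16.7 against 25.7 CPM in the WT spleen, with intervals that overlapped in the CKO library only.

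No other listed gene of tRNA modification passed 1.5-fold in T or in B cells. The list of 18 holds enzymes that modify mitochondrial tRNAs, some of which also act on cytosolic ones, and Cdkal1. All 18 were measured in both classes, with median log2 ratios of -0.07 in T and 0.01 in B cells. Over all genes 6.47% were lower in T and 3.5% in B cells, shares at which few or none of 18 would pass. In T cells Qtrt1 lay just inside the threshold, at 0.676 (0.477 to 0.937), and Pus1 stood at 0.7775 (0.606 to 0.987). Cdkal1, a methylthiotransferase of the same family as Cdk5rap1 that acts on a cytosolic tRNA, had ratios of 1.24 in T and 1.14 in B cells. Trit1, which places an isopentenyl group on the adenosine that Cdk5rap1 then modifies, had 1.21 and 1.14. Of 4 measured genes for CDK5 and its binding proteins, none passed in either class, where 86.5% of all genes in T and 92.2% in B cells lay within 1.5-fold. Cdk5rap2 and Cdk5rap3 had ratios between 0.911 and 1.10. None of the 20 nearest neighbours of Cdk5rap1 passed in the same direction in T and B cells, where 1.22% of genes over all chromosomes did.

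**Figure D3:**
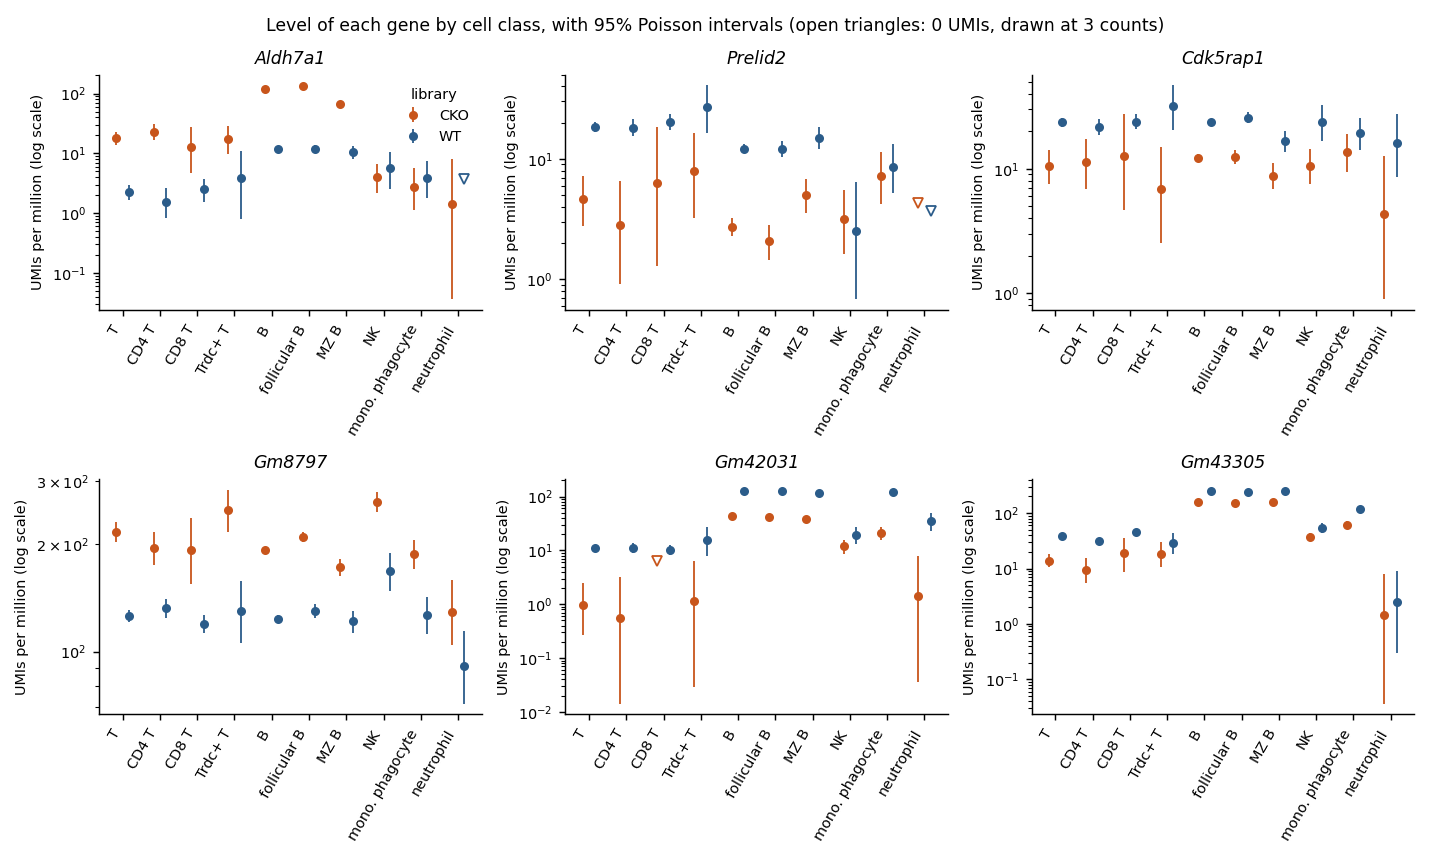
Level of each gene in CPM on a log axis, by cell class, in the CKO (orange) and WT (blue) library, with 95% Poisson intervals; open triangles mark classes with 0 UMIs, drawn at 3 counts. Aldh7a1 is highest in CKO follicular B cells (132 CPM), Cdk5rap1 lies near 24 CPM in WT T, B and NK cells, and Gm42031 and Gm43305 are higher in B cells than in T cells in each library.

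Gm8797 (ENSMUSG00000103034, mm10 chr3:5750806-5751295, plus strand) is annotated as protein coding by GENCODE and as a pseudogene by RefSeq. Its 1 transcript of 490 bases matched the transcript of Ubb, the polyubiquitin gene on chromosome 11, over 384 aligned bases, with 6 differing bases, 1 gap and 98.2% identity. Reads from such copies are hard to place, so the split of counts between Gm8797 and Ubb is uncertain. A stretch of 60 bases with 4 of the differences shows how few bases part the copies, from bases 114 to 173 of the Gm8797 transcript and 1131 to 1190 of the Ubb transcript in GENCODE (mm10), with differing bases in capitals.
Gm8797: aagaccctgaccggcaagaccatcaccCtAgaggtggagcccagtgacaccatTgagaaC
Ubb: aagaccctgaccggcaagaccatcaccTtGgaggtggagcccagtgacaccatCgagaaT

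Gm8797 was higher in the CKO library in every class, by similar ratios. T cells had 887 UMIs in the CKO library (216 CPM, 202 to 231) against 2887 in the WT library (126 CPM, 121 to 130.4), a ratio of 1.72 (1.59 to 1.85). B cells had 9989 UMIs in the CKO library (193 CPM) against 5010 in the WT library (123 CPM), for a ratio of 1.56 (1.51 to 1.62). The ratio was 1.56 (1.36 to 1.80) in NK cells, 1.48 (1.28 to 1.72) in mononuclear phagocytes and 1.42 (1.03 to 1.96) in neutrophils. In Trdc-positive T cells it was 1.91 (1.503 to 2.44), where 14.4% of genes were higher, and in neutrophils 8.98% of genes passed while Gm8797 did not. The intervals of the 5 main classes overlapped one another, so the classes were not told apart by this ratio, and 1.5-fold was passed in some and narrowly missed in others.

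Ubb itself was lower in the CKO library in the same classes. It had 1129 CPM in CKO against 1285 CPM in WT T cells (ratio 0.878, 0.851 to 0.906) and 1146 against 1282 CPM in B cells (0.894, 0.884 to 0.905). The ratio was 0.914 in NK cells, 0.846 in mononuclear phagocytes and 0.809 in neutrophils. When the UMIs of both were summed, the ratio was 0.953 (0.926 to 0.981) in T cells, 0.953 (0.942 to 0.963) in B cells, 0.972 in NK cells and 0.898 in mononuclear phagocytes. The sum lay nearer to 1 than either gene in these 4 classes. The ratio of a sum must lie between those of its parts, here above and below 1, and most of the UMIs came from Ubb. It therefore does not show how reads were divided between the copies, which was not tested.

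**Figure D4:**
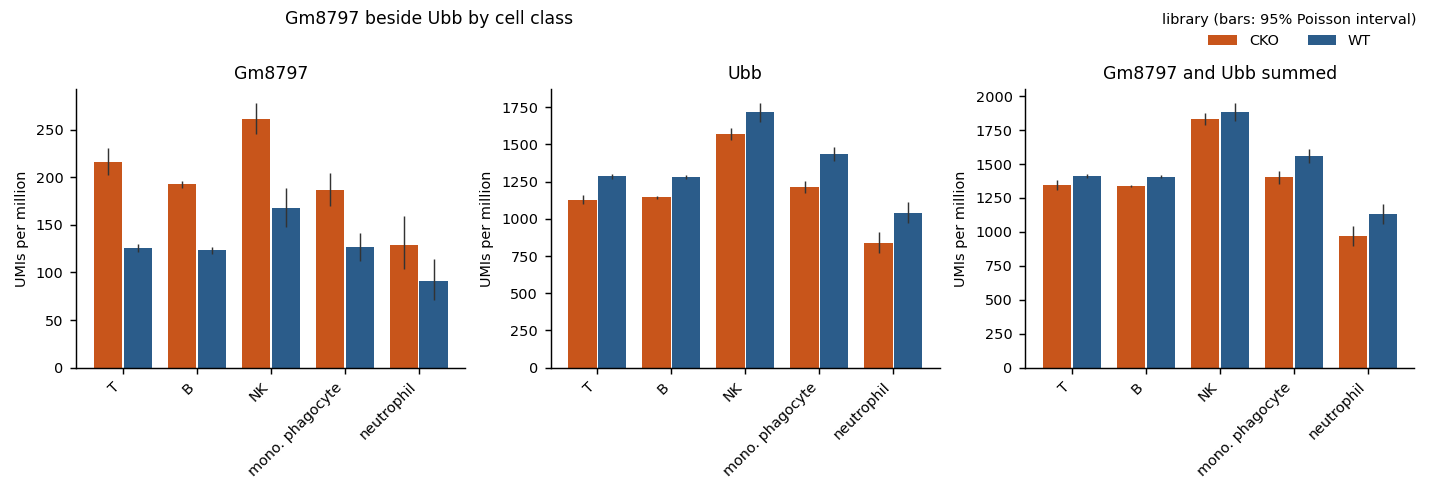
CPM by cell class in the CKO (orange, left of each pair) and WT (blue) library for Gm8797, for Ubb and for both summed, with 95% Poisson intervals. In T cells Gm8797 stands at 216 against 126 CPM, Ubb at 1129 against 1285 CPM, and the sum at 1345 against 1411 CPM.

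Around Gm8797 only 11 measured neighbours could be listed, since it lies near the start of chromosome 3. One of them, Gm16337, was higher in both T and B cells, with ratios of 3.01 and 1.64 that rest on 7 against 13 UMIs in T cells and 48 against 23 UMIs in B cells. It lies 4006 kb away. Over all genes tested in both classes, 0.67% were higher in both.

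Gm42031 (ENSMUSG00000110386, mm10 chr8:85125872-85132289, minus strand, a long intergenic RNA) and Gm43305 (ENSMUSG00000105703, mm10 chr14:54292443-54297456, minus strand, a processed transcript) lie on different chromosomes and are near copies over part of their length. Their transcripts share a stretch of 748 bases at 98.7% identity. Their promoters, taken from RefSeq on GRCm38.p6 as 250 bases before to 50 bases after the start that RefSeq gives, were 98% identical, with 294 of 300 bases the same, while each shared 42.4% or 42.7% of aligned positions with the promoter of Cdk5rap1. The Gm42031 window lies wholly inside the gene as GENCODE places it, with a start further upstream. In that annotation the window is part of the gene and not its promoter. The promoters are shown because the pair differs so little there, at chr8:85131765-85132064 and chr14:54297439-54297738, both on the minus strand, with the 6 differing bases in capitals.
Gm42031: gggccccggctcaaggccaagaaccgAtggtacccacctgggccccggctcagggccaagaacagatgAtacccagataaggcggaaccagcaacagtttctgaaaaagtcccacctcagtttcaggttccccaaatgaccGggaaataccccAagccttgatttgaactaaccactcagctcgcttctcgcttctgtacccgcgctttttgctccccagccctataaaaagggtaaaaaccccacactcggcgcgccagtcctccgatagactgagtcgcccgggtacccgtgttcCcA
Gm43305: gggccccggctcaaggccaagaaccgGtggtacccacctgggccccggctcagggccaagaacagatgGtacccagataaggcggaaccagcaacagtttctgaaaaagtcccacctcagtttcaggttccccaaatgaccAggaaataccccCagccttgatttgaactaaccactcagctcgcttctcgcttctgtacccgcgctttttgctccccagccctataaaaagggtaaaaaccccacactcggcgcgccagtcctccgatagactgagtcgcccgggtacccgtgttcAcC

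Both windows hold the letters TATAAA, 27 bases before the RefSeq start, where a TATA box stands in many promoters, and the Cdk5rap1 window does not. On either strand of the same window, these letters were found in 14.2% of 27025 promoters. Of the 6 genes, 3 had a promoter in the RefSeq table, these being Cdk5rap1, Gm42031 and Gm43305.

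Gm42031 was lower in the CKO library in all classes, and by unequal amounts. T cells had 4 UMIs in the CKO library (0.974 CPM, 0.265 to 2.49) against 259 in the WT library (11.3 CPM, 9.95 to 12.7), a ratio of 0.0864 (0.0234 to 0.224). B cells had 2236 UMIs in the CKO library (43.1 CPM, 41.3 to 44.9) against 5071 in the WT library (125 CPM, 121 to 128), a ratio of 0.346 (0.329 to 0.363). The T cell ratio lay below the B cell ratio, with intervals that did not overlap. The summed plasma cell markers, in B cells mostly Jchain, were also lower in CKO B cells (417 against 773 CPM) and in marginal zone B cells (598 against 1378 CPM). They were not lower in follicular B cells (265 against 226 CPM). With the planned gate, which also leaves out cells with 2 or more UMIs of plasma cell markers, the B cell log2 ratio of Gm42031 was -1.52, against -1.53 with the gate used. Those of Prelid2, Cdk5rap1 and Gm43305 were -2.17, -0.996 and -0.68 with the planned gate, against -2.16, -0.96 and -0.67.

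Mononuclear phagocytes had 53 UMIs of Gm42031 in the CKO library (21.1 CPM) against 280 in the WT library (119.9 CPM), a ratio of 0.176 (0.129 to 0.237). Neutrophils had 1 against 28 UMIs, a ratio of 0.0417 (0.00102 to 0.252), where 10.9% of 5079 genes were lower. NK cells stood nearest to 1, with 45 UMIs in the CKO library (11.9 CPM) against 31 in the WT library (19.4 CPM), a ratio of 0.610 (0.378 to 0.997). In the WT library the order ran from B cells and mononuclear phagocytes, whose levels did not differ beyond their intervals, through neutrophils and NK cells to T cells, and the intervals of neutrophils and NK cells overlapped. In the CKO library the order was B cells, mononuclear phagocytes, NK cells and then neutrophils and T cells, whose intervals overlapped.

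Among T cells, CD8 cells had 0 UMIs of Gm42031 in the CKO library against 90 in the WT library (10.2 CPM). The Poisson interval of the CKO level reached 7.78 CPM, and the interval of the ratio reached 0.778. At the floor of 3 counts over the class, 6.33 CPM, the CKO level would be 1.61-fold lower. CD4 T cells had 1 against 93 UMIs, a ratio of 0.0503 (0.00126 to 0.288), and Trdc-positive T cells 1 against 12. Follicular and marginal zone B cells had ratios of 0.332 (0.305 to 0.362) and 0.329 (0.286 to 0.377), which did not differ beyond their intervals.

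In CKO B cells 19.6% held at least 1 UMI of Gm42031 (18.8 to 20.4), against 43.7% of WT B cells (42.5 to 44.8), and after thinning the shares were 4% and 11.9%. In CKO T cells 4 of 661 held a UMI (0.605%), against 187 of 3222 WT T cells (5.80%). The share in T cells of a B cell transcript gives a measure of free RNA. Gm42031 stood in T cells at 2.26% of its B cell level in the CKO library and at 9.04% in the WT library, beside 0.711% and 0.881% for Fcer2a. The CKO share rests on 4 UMIs, and its interval of 0.615% to 5.79% overlaps that of Fcer2a, 0.379% to 1.22%. In the WT library the intervals, 7.95% to 10.2% and 0.710% to 1.08%, did not overlap.

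Gm43305 shared the direction of Gm42031 at smaller sizes. T cells had 57 UMIs in the CKO library (13.9 CPM, 10.5 to 17.99) against 900 in the WT library (39.2 CPM, 36.7 to 41.8), a ratio of 0.354 (0.266 to 0.463). B cells had 8183 UMIs in the CKO library (158 CPM, 154 to 161) against 10197 in the WT library (251 CPM, 246 to 256), a ratio of 0.629 (0.611 to 0.648). The ratio was 0.523 (0.426 to 0.640) in mononuclear phagocytes and 0.671 (0.510 to 0.888) in NK cells, and neutrophils had 1 against 2 UMIs. In T cells, B cells and mononuclear phagocytes the ratio of Gm43305 lay nearer to 1 than that of Gm42031, and their intervals did not overlap in these 3 classes. In NK cells they did.

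Gm43305 was unevenly spread among B cells. It was found in 43.1% of CKO B cells and 61.6% of WT B cells, against 54.0% and 70.6% if every cell had held it at 1 common rate. Single B cells held up to 50 UMIs in the CKO library and 44 in the WT library. Cells with 10 or more UMIs numbered 35 in the CKO library, with 6.98% of the B cell counts, and 59 in the WT library, with 8.29%. For Aldh7a1 the highest count in a B cell was 8 UMIs in the CKO library and 5 in the WT library.

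Other transcripts share stretches of at least 150 bases at 90% identity or more with this pair, and most of those measured were lower too. Gm42031 had 6 such genes in the feature list, and 4 of them were lower past 1.5-fold in T cells and in B cells. Over all genes tested in both classes, 0.543% were lower in both. Gm43305 is among the 4 and was itself picked for this shift. Gm4316 had 1 UMI in CKO T cells against 24 in WT T cells (ratio 0.233, 0.00567 to 1.43) and 61 against 100 UMIs in B cells (0.478, 0.342 to 0.664). Gm46620 had ratios of 0.124 in T and 0.445 in B cells, and Gm49980 had 0.621 and 0.588. AI506816, which shares 522 bases at 91.8% identity, had 0.976 and 0.989, and Chd9, which shares 337 bases at 98.5% identity in 1 of its transcripts, had 0.852 and 0.894. Where near-identical copies share reads, counts of the single genes are uncertain, and the sum of Gm42031 and Gm43305 gave 0.294 (0.224 to 0.381) in T cells, 0.535 (0.522 to 0.549) in B cells, 0.655 in NK cells and 0.347 in mononuclear phagocytes.

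The 20 nearest measured genes of Gm42031 and of Gm43305 had median ratios between 1.001 and 1.08 in T and B cells. None of them passed 1.5-fold in the same direction in both classes. Over all chromosomes 1.22% of genes did, a share at which few or none of 20 would pass. Gm43305 lies beside T cell receptor delta and alpha genes. Of its 16 neighbours measured in T cells, 5 were higher in the CKO library, where 7.29% of all genes tested were. In the CKO library 121 of 661 T cells held a Trdc UMI, against 111 of 3222 in the WT library.

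**Figure D5:**
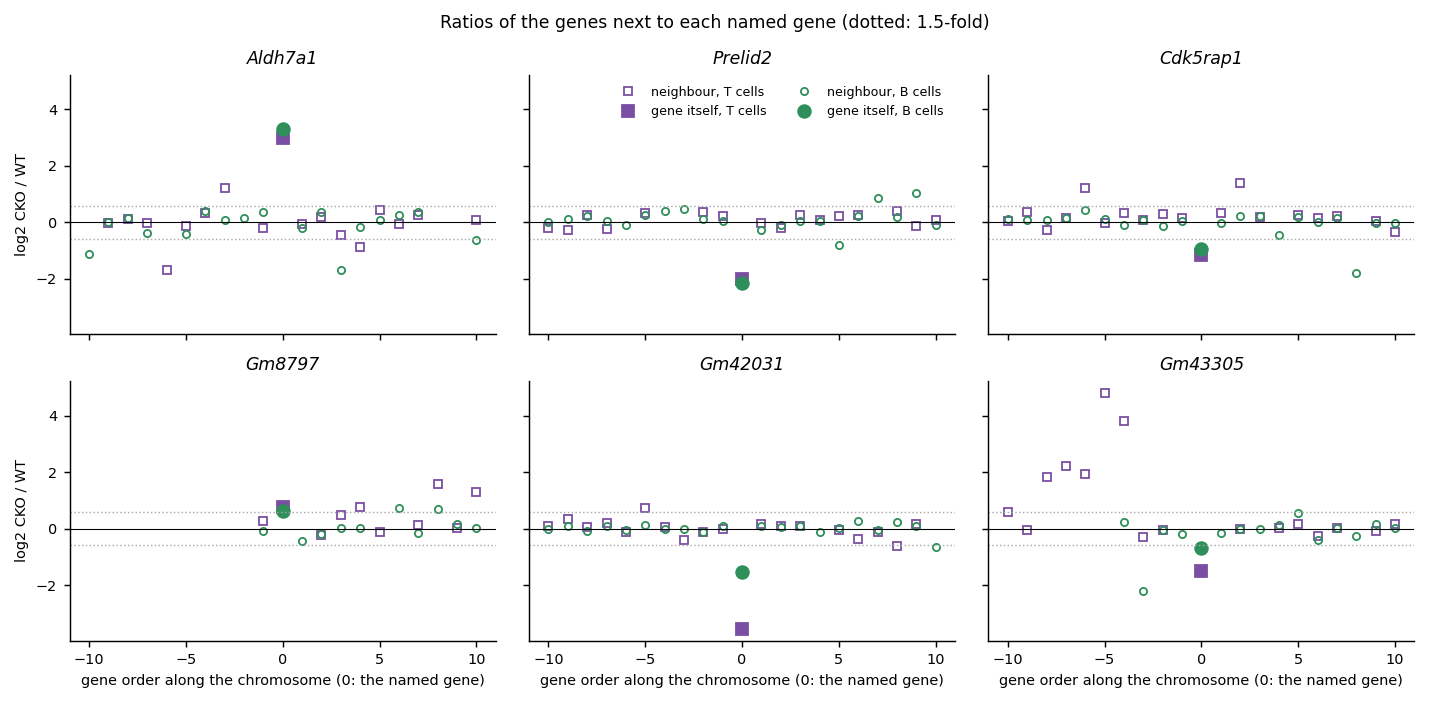
Log2 CKO over WT ratio of the nearest measured genes on each side of each gene (open symbols, by gene order) and of the gene itself (filled, at 0), in T cells (squares) and B cells (circles), with dotted lines at 1.5-fold. Filled symbols stand apart from most neighbours, while the T cell neighbours at places -8 to -4 of Gm43305 lie above 1.5-fold.

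Likeness of profile was measured as Pearson's r of log2(CPM + 1) over 10 points, the 5 main classes in each library, among 11039 other genes, and it is a description over points that share libraries and depth. The gene most like Aldh7a1 was Btbd8 (r = 0.870), and the one most like Prelid2 was Rbm3 (0.928). Cdk5rap1 was most like Eif2s3y, a Y-linked translation factor gene (0.907). For Gm8797 it was 1810013L24Rik (0.946), for Gm42031 Oxld1 (0.887) and for Gm43305 Zbtb12 (0.976). Of these 6 genes, Eif2s3y passed 1.5-fold in T and B cells, with ratios of 0.250 and 0.209, and the others had T and B ratios between 0.685 and 1.39.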

How the data were processed

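The authors deposited a raw count of UMIs for each gene in each barcode, made with Cell Ranger 6.0.2 per the file headers. Per the submitters' processing notes the build was mm10, and Seurat 4.0.3 and Cell Ranger 5.0.0 are named there; how reads that match several copies were counted is not given in the sources used here. The 6 genes and all gene lists were chosen with earlier results of these data known. Cells with 200 to 6000 genes and under 10% mitochondrial UMIs were retained, 12610 CKO and 12679 WT cells, and 11303 (89.6%) and 11155 (88.0%) of these entered the 5 main classes.

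The markers were Cd3d, Cd3e and Cd3g (T), Cd79a, Cd79b, Ms4a1 and 1 gene not reported here (B), Ncr1, Klrb1c, Klre1, Klra8 and Klra4 (NK), Csf1r, Ms4a6c, Adgre1, Cd68, Clec4a3, Flt3, Xcr1, Clec9a, Cd209a and Zbtb46 (mononuclear phagocytes) and Csf3r, Cxcr2, Retnlg, Ngp and Camp (neutrophils). CD4, CD8 and Trdc-positive T cells were told apart by Cd4, Cd8a or Cd8b1, and Trdc, follicular B cells by Fcer2a and marginal zone B cells by Cr2, Cd9 and Dtx1 without Fcer2a. The planned gate also excluded cells by plasma, plasmacytoid and erythroid lists; these were dropped after cell numbers were seen, and the planned form was run as an alternative. Doublets were limited by the gates, with Scrublet (scanpy 1.11.5) as an alternative. UMIs were summed per class and library and divided by the class total. With 1 library per genotype no test was made and cells were not treated as replicates; the ratio procedure was checked on simulated counts. A count of 0 was given a floor of 3 counts over the class.

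The genes named are the 6, those of the fixed pathway lists, the neighbours past 1.5-fold in T and B cells, the genes most alike in profile and the genes past 1.5-fold in 4 classes; near-identical copies, Phax and the check genes were added after their values were seen. Positions come from GENCODE vM21 (mm10), which matched 32235 of 32285 genes, and promoters from RefSeq (GRCm38.p6). The software was scipy 1.17.1, numpy 2.4.6, Biopython 1.88, pandas 2.3.3 and matplotlib 3.10.9 under Python 3.11.15.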

Additional observations from a re-analysis of the deposited data

Results flagged for a closer look

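Aldh7a1 was higher in the CKO library in T cells (log2 ratio 2.97) and B cells (3.30), but not in NK cells, where the log2 ratio was -0.51 from 15 UMIs in the CKO and 9 UMIs in the WT library. It is listed for the opposite direction in a class under the same contrast. The difference between classes was not tested, since each genotype has 1 library, and the counting interval of the NK ratio includes 1.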

How the results depend on the processing

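The T and B cell ratios of the 6 genes retained their direction and their side of 1.5-fold under the 9 alternatives run, save that thinning left 0 UMIs of Gm42031 in CKO T cells and so gave no value. The alternatives were no cell filter, a stricter filter, a stricter, a looser and the planned gate, Scrublet, 2 other scalings and thinning to 1000 UMIs. Of the B cell log2 ratios, 3 moved beyond their counting interval, Aldh7a1 to 3.09 and Gm42031 to -1.65 with thinning and Gm43305 to -0.71 with median of ratios scaling. Thinning also left Aldh7a1 in T cells under 20 UMIs. In NK cells Cdk5rap1 turned to 0.19 with thinning, which left 14 CKO and 5 WT UMIs. There Gm42031 came inside 1.5-fold with the stricter and the planned gate (-0.57 and -0.58) and stood at -1.94 with thinning, from 7 CKO and 11 WT UMIs. Gm8797 came inside with the planned gate (0.58). Gm43305, at -0.57 in NK cells, was lower past 1.5-fold with the stricter gate (-0.78) and thinning (-0.76), and stood at -0.08 with the planned gate. Prelid2 in NK cells, at 0.33, stood at -0.83 with the looser gate, past 1.5-fold on 12 CKO and 9 WT UMIs. In mononuclear phagocytes Gm43305 stood at -0.26 with thinning, against -0.93, Cdk5rap1 was lower past 1.5-fold with the stricter and the planned gate (-0.83 and -0.81), and Gm8797 was higher past it under 4 alternatives (0.60 to 0.85). Over the 9 alternatives, Gm42031 was lower in all 4 classes under 6, Cdk5rap1 under 2 and Gm43305 under 1, and Gm8797 was higher in all 4 under 3. With at least 50 summed UMIs the genes past 1.5-fold numbered 497 higher and 416 lower in T cells and 286 and 228 in B cells. With at least 1 UMI in each library they numbered 2072 higher in T cells, and 1594 higher and 1266 lower in B cells. At 2-fold, 2 genes were higher and 2 lower in all 4 classes. The median of ratios scaling moved all log2 ratios by less than 0.1. No paired analysis was possible because each genotype has 1 library, and for the same reason no replicate could be left out. NK cells, mononuclear phagocytes and neutrophils are limited by depth, with under 20 UMIs of Aldh7a1 and Prelid2 in several of them.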

Other observations

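Besides Gm42031, 4 genes were lower in the CKO library in T, B, NK and mononuclear phagocyte classes together, Eif2s3y, Cxcl10, Ccdc171 and Snhg9. Eif2s3y, a translation initiation factor gene on the Y chromosome, had 19.0 CPM in CKO against 76.0 CPM in WT T cells and 18.6 against 89.2 CPM in B cells, with ratios of 0.250, 0.209, 0.2001 and 0.189 in T, B, NK and mononuclear phagocyte cells. Of 6 Y-linked genes tested in both T and B cells, 2 were lower in both, Eif2s3y and Gm29650 (2 against 27 UMIs in T and 10 against 43 UMIs in B cells), and Gm47283 was higher (ratios 1.58 and 1.72). The other 3 did not pass 1.5-fold: Ddx3y had ratios of 1.23 in T and 1.03 in B cells, Kdm5d 0.979 and 0.974, and Uty 0.902 and 0.971. Cxcl10, an interferon-induced chemokine, had 26 UMIs in CKO against 72 in WT mononuclear phagocytes and 18 against 52 UMIs in NK cells.

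Higher in the CKO library in all 4 classes were Hspa1a and Hspa1b, the inducible heat shock protein 70 genes, the histone gene Hist1h2ap, S100a8, Gm47283 and Cep55, a gene of cell division. Hist1h2ap had 125 CPM in CKO against 10.7 CPM in WT NK cells and 68.4 against 29.6 CPM in B cells. S100a8, a calprotectin subunit of neutrophils, had 74.1 CPM in CKO against 8.14 CPM in WT mononuclear phagocytes, and 21.0 against 12.3 CPM in B cells. Causes of these differences were not tested.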
